A study of Rattus norvegicus with 20 samples.

Results

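Microglia are the resident macrophages of the brain, and 10 genes that mark them, Aif1, Cx3cr1, Csf1r, Itgam, Trem2, Tyrobp, P2ry12, Cd68, Tmem119 and Ptprc, were followed in the arcuate nucleus of infant rats. They were found as the probes, other than controls, whose current or older gene symbol is one of these 10 names. All 10 genes were found, with 15 of the 30367 probes that together carry 25885 gene names. All 10 were tested among 17065 genes, and 14 of their 15 probes passed the filter on dim probes.

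Gene expression was measured on two-colour arrays in the hypothalamic arcuate nuclei of 20 female Sprague-Dawley rats, taken on postnatal day 15, with 4 rats in each of 5 groups. SNS rats came from mothers injected with saline on gestational day 15, had no spasms and got saline after birth. The mothers of all other rats received the glucocorticoid betamethasone on gestational day 15 (0.4 mg/kg per dose). Of their offspring, BNS rats had no spasms and got saline, while BYS, BYA and BYP rats had spasms triggered with NMDA, an agonist of a glutamate receptor, on postnatal days 12, 13 and 15. BYS rats were then treated with saline, BYA rats with adrenocorticotropic hormone (ACTH), and BYP rats with PMX53, an antagonist of the receptor for complement fragment C5a. Treatment fell on postnatal days 13, 14 and 15 by the labels and began on day 12 by the methods. The litter of each rat was not given in the sources used here.

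Each channel of an array carried the RNA of 1 rat, and 9 of the 11 arrays held 2 rats of the same group. The other 2 arrays held 1 BYA rat each, beside a rat of another series that was not used. No slide held more than 1 of these 5 groups, and BYA alone was spread over more than 1 slide (its replicate 3 was apart from the rest), so slide and group cannot be told apart. The median spot signal was 6.9 times the local background in SNS, 15.8 in BNS, 15.9 in BYS, 9.12 in BYP and 7.48 in BYA. For BYA replicate 3, the dye in the label and the sample order in the name of the raw data do not match. It is not certain that its channel is that of the female BYA rat. By its code in that name, the other rat on the array is an SNS male, so the doubt concerns group as well as sex. The 12 tested markers of arcuate neurons, among them Agrp, Npy, Pomc and Kiss1, had a summed log2 level between 16.16 and 17.41 in the samples. The precision of all values is limited by how few arrays there were, with 4 samples a group.

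Microglia enter the brain early in development and are kept alive by signals through Csf1r, the receptor for colony stimulating factor and interleukin 34. At rest they survey the tissue with fine processes and carry receptors for neuronal and nucleotide signals, such as Cx3cr1 and P2ry12. After seizures or injury they commonly lower these receptors and raise chemokines, adhesion molecules and lysosomal genes.

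The probes are 60 bases long, and the last 30 bases of those for Cx3cr1, P2ry12 and Ptprc are given as read from the deposited files, because most calls rest on them. In the Cx3cr1 probe (rat genome build rn4, chr8:125033728-125033787, minus strand) the capitals mark a run of 22 bases of alternating C and A. The P2ry12 probe lies at chr2:148611053-148611112 on the minus strand. The Ptprc probes lie on the minus strand at chr13:51246523-51246582 and chr13:51274302-51274361. No annotation of exons or UTRs was used here.
Cx3cr1 A_64_P008406: aacagattCACACACACACACACACACACA
P2ry12 A_43_P12315: actcctccaaggaaatcaccacataaatat
Ptprc A_42_P483564: gtgggaaacaggactttgcaaatgggtttt
Ptprc A_64_P069799: tttctgattattgtgacatcaatagccctg

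Levels below are log2 intensities after background correction and quantile normalization of the 20 channels, and differences are on the same log2 scale. A gene was called when limma's p, adjusted by Benjamini-Hochberg over all genes tested, was under 0.05. In whole tissue, fewer cells of a type and less RNA per cell cannot be told apart. Over all 5 groups, limma's moderated F test called 3 of the 10 members, Cx3cr1 (adjusted p = 0.000158), P2ry12 (adjusted p = 0.00827) and Ptprc (adjusted p = 0.0425), in a setting where it called 30.4% of all genes. With the array as a random block, since pairs of rats shared arrays, the F test called Cx3cr1 (limma adjusted p = 0.00144) but neither P2ry12 (adjusted p = 0.0822) nor Ptprc (adjusted p = 0.182), and Ptprc was called under 14 of 30 alternatives. Itgam had an adjusted p of 0.0671, and the other 6 members had one of 0.167 (Trem2) or higher. Among the 100 pairs of a member and a comparison, 8 were called, and all 8 were differences from SNS.

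Against SNS, 1 member was called in BNS (lower, where 28.6% of all genes were called, 15.1% higher and 13.5% lower), 2 in BYS (1 higher, 1 lower, beside 27.1% of all genes, 14.5% higher and 12.6% lower), 1 in BYA (lower, beside 31.3%, 15.8% higher and 15.4% lower) and 4 in BYP (2 higher, 2 lower, beside 28.9%, 15.4% higher and 13.5% lower). The share of members called was below that of all genes in BNS, BYS and BYA and above it in BYP. These 4 comparisons share the SNS samples. The median difference of the 10 members was 0.02 for BNS, −0.11 for BYS, −0.05 for BYA and 0.01 for BYP, beside −0.04, −0.03, −0.04 and −0.04 for all genes. The calls went in both directions. Between groups that all had prenatal betamethasone, limma called 0 members, as did the methods' t-test after Benjamini-Hochberg adjustment. In these comparisons limma called 0.0293% of all genes between BYS and BNS, 0% between BYA and BYS, 0.0352% between BYP and BYS, 0.158% between BYP and BYA, 0.117% between BYA and BNS and 1.51% between BYP and BNS. Before adjustment, limma's p was under 0.05 for 3 members between BYS and BNS (beside 6.9% of all genes), 4 between BYA and BYS (8.07%), 2 between BYP and BYS (8.51%), 2 between BYP and BYA (13.6%), 2 between BYA and BNS (13.1%) and 2 between BYP and BNS (17.8%).

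**Figure D1:**
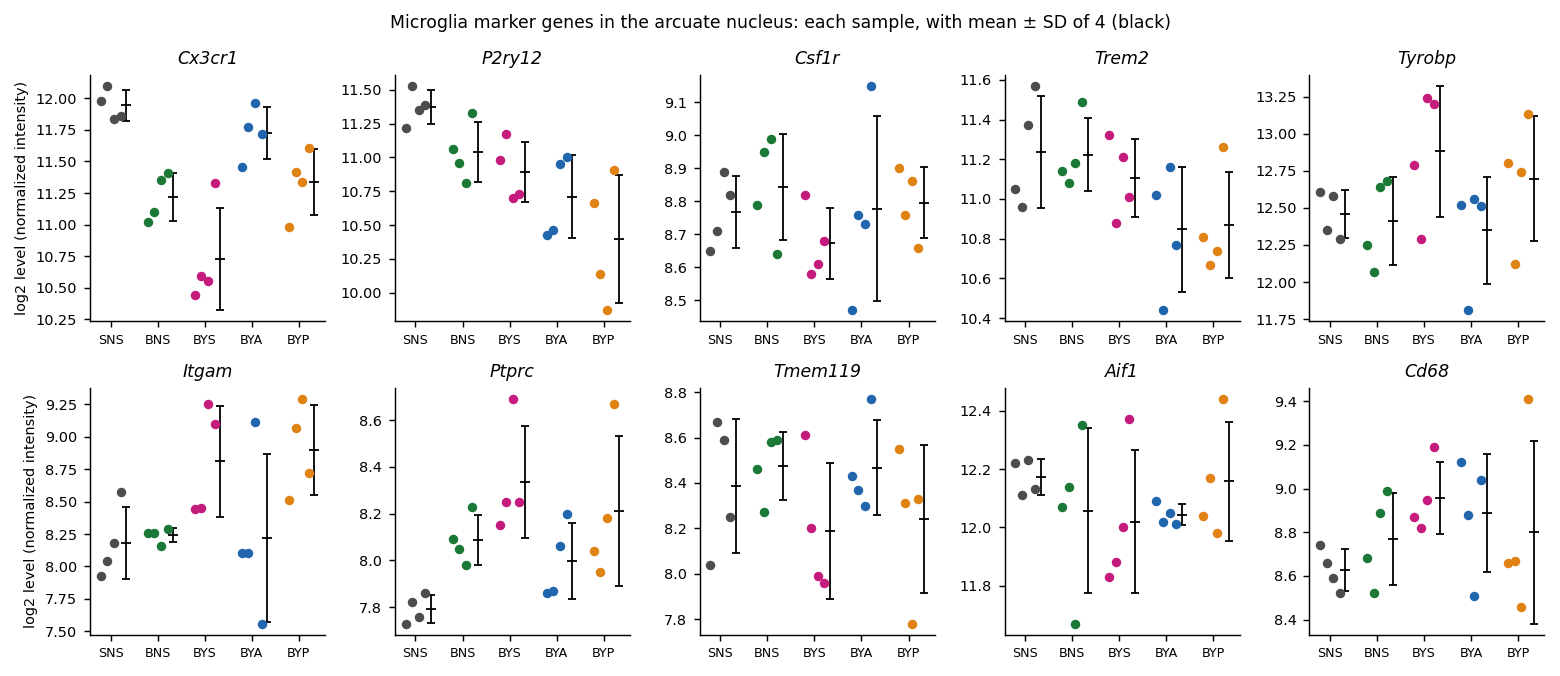
Log2 level of each microglia marker gene (y axis, normalized intensity) in each of the 20 samples by group (x axis), with the mean ± SD of 4 samples in black. Cx3cr1 lies lower in BNS, BYS and BYP than in SNS, P2ry12 is lowest in BYP, and Aif1 and Csf1r overlap between most groups.

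Cx3cr1, the microglial receptor for the neuronal chemokine fractalkine, showed the widest differences of the 10 members. Its level in SNS was 11.98, 12.10, 11.84 and 11.86. In BNS it was 11.02, 11.10, 11.35 and 11.41. All 4 BNS samples lay below all 4 SNS samples. In BYS it was 10.44, 10.59, 10.55 and 11.33, the last being replicate 4. In BYA it was 11.46, 11.77, 11.96 and 11.72, and in BYP 10.98, 11.42, 11.34 and 11.61. The means stood in the order SNS (11.95 ± 0.12), BYA (11.73 ± 0.20), BYP (11.34 ± 0.27), BNS (11.22 ± 0.19) and BYS (10.73 ± 0.41; SD, n = 4), and no neighbours in this order differed past the threshold.

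Against SNS, Cx3cr1 fell by 0.73 in BNS (1.65-fold lower, standard error 0.16, limma adjusted p = 0.00284), by 1.22 in BYS (2.33-fold lower, adjusted p = 2.9e-05) and by 0.61 in BYP (1.52-fold lower, adjusted p = 0.00913), with no overlap of the groups in any of the 3. In BYA the difference from SNS was −0.22 (95% interval −0.56 to 0.11, limma adjusted p = 0.304) and the groups overlapped. Between BYA and BYS the difference was 1.00 (95% interval 0.66 to 1.33), and all 4 BYA samples lay above all 4 BYS samples, but the limma adjusted p was 0.109. Without BYA replicate 3, whose channel is not certain, this difference was 0.88 with a limma adjusted p of 0.038, and without BYS replicate 4 it was 1.18 with a limma adjusted p of 0.0025. BYS minus BNS was −0.49 (limma adjusted p = 0.545), and BYP minus BYS was 0.61 (limma adjusted p = 0.258).

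The Cx3cr1 probe ends in the CA run printed above, and 11 other probes that passed the filter hold a run at least as long. Between BNS and SNS, 6 of these 11 were called lower, beside 13.4% of all probes. The median difference over the 11 was −0.46 (from −0.60 to −0.20), beside −0.05 for all probes. In the other comparisons none of the 11 was called, with a median of −0.10 for BYS minus SNS, −0.03 for BYP minus SNS and 0.35 for BYS minus BNS. The Cx3cr1 difference was −0.73 in BNS minus SNS, and −1.22, −0.61 and −0.49 in the 3 comparisons named after it. For BYA minus BNS the median of the 11 was 0.54 (from 0.32 to 0.67), beside 0.50 for Cx3cr1. It was 0.20 for BYA minus BYS, 0.11 for BYA minus SNS and 0.32 for BYP minus BNS, where Cx3cr1 differed by 1.00, −0.22 and 0.12. For BYP minus BYS it was −0.01 and for BYP minus BYA −0.17, beside 0.61 and −0.39 for Cx3cr1. The part of the run in the Cx3cr1 result was not tested. With median scaling of the channels, used instead of quantile normalization, the difference between BNS and SNS was −1.41 and that between BYP and SNS was −1.30. With the extraction software's processed signals, BYP minus SNS was −0.44 and no longer called (limma adjusted p = 0.11).

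P2ry12, the ADP receptor through which resting microglia extend their processes toward released nucleotides, was called lower in BYA and BYP than in SNS. Its level was 11.22, 11.53, 11.35 and 11.39 in SNS, and 11.06, 10.96, 10.81 and 11.33 in BNS. It was 10.98, 11.17, 10.70 and 10.73 in BYS, 10.43, 10.46, 10.95 and 11.00 in BYA, and 10.66, 10.14, 9.87 and 10.91 in BYP. The group means stood in the order SNS (11.37 ± 0.13), BNS (11.04 ± 0.22), BYS (10.90 ± 0.22), BYA (10.71 ± 0.31) and BYP (10.40 ± 0.47; SD, n = 4), and neighbouring groups in it were not called. The BYS, BYA and BYP samples all lay below the lowest SNS sample.

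P2ry12 fell by 0.66 between SNS and BYA (1.58-fold lower, limma adjusted p = 0.014) and by 0.98 between SNS and BYP (1.97-fold lower, limma adjusted p = 0.0011). The difference was −0.48 in BYS (limma adjusted p = 0.0701) and −0.33 in BNS (limma adjusted p = 0.194). Against BYS, BYA differed by −0.19 (limma adjusted p = 0.851) and BYP by −0.50 (limma adjusted p = 0.47). BYP minus BNS was −0.65 (95% interval −1.04 to −0.25, limma adjusted p = 0.0859), and without BYP replicate 4 it was −0.80 (limma adjusted p = 0.0429). The fall in BYA was no longer called with the processed signals (−0.31, limma adjusted p = 0.413), with median scaling (−0.72, adjusted p = 0.13), with the array as a random block (−0.62, adjusted p = 0.0762) or without BYA replicate 2 (−0.54, adjusted p = 0.055). The fall in BYP was called under all of these settings.

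**Figure D2:**
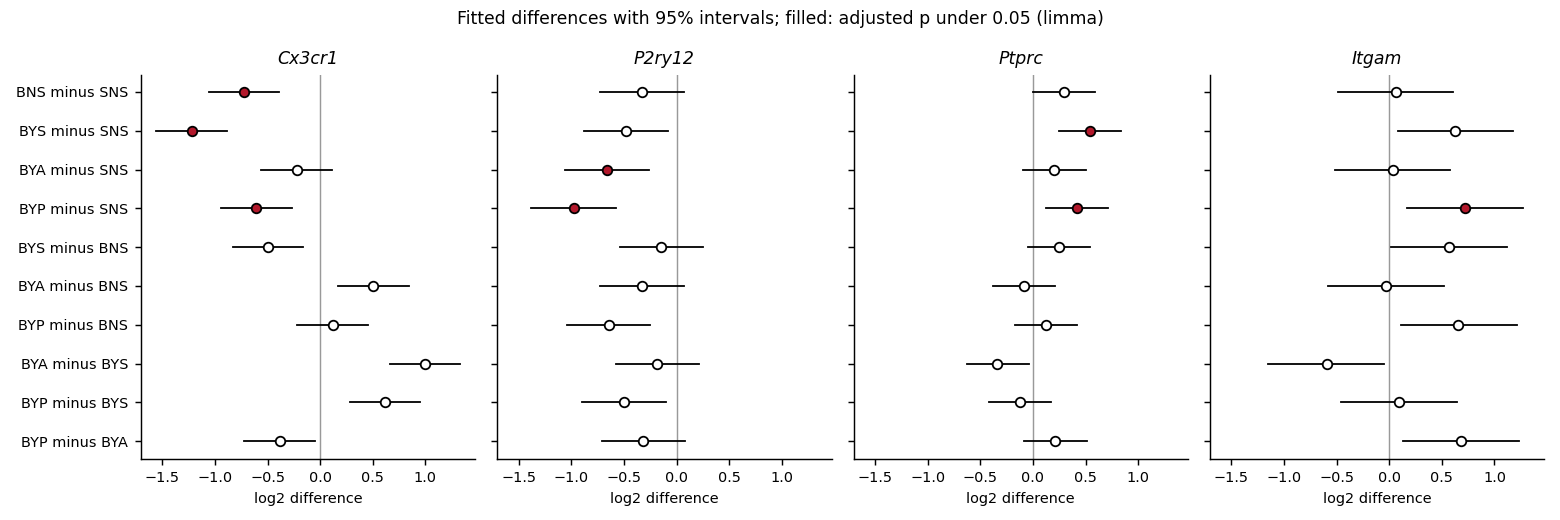
Fitted log2 differences of the 4 members called at least once (x axis, with 95% intervals) in the 10 comparisons (y axis). Filled points mark an adjusted p under 0.05, and all 8 filled points are differences from SNS, 3 for Cx3cr1, 2 each for P2ry12 and Ptprc and 1 for Itgam.

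Ptprc encodes CD45, a phosphatase of all white blood cells that microglia carry at low levels, and it rose in BYS and BYP. Its level was 7.73, 7.82, 7.76 and 7.86 in SNS, and 8.09, 8.05, 7.98 and 8.23 in BNS. It was 8.15, 8.25, 8.69 and 8.25 in BYS, 7.86, 7.87, 8.06 and 8.20 in BYA, and 8.04, 7.95, 8.18 and 8.67 in BYP. The SNS samples lay below all BNS, BYS and BYP samples and overlapped those of BYA. The difference from SNS was 0.54 in BYS (1.46-fold higher, limma adjusted p = 0.00872), 0.42 in BYP (1.34-fold higher, limma adjusted p = 0.0327), 0.29 in BNS (limma adjusted p = 0.121) and 0.20 in BYA (limma adjusted p = 0.278).

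The Ptprc signal was weak. Its kept probe, A_42_P483564, is spotted 10 times, and at least 0.5 of these spots were well above background in 2 of 4 samples of SNS and BYA, in 3 of BYP and in all of BNS and BYS. The other probe, A_64_P069799, was well above background in 4 of the 20 samples, BYS replicates 2, 3 and 4 and BYP replicate 4, and failed the filter. The groups with more signal over background, BNS and BYS, were also those where the most spots of this gene were measured, and the part of signal strength in the Ptprc result was not tested. Without BYS replicates 3 and 4, which share an array, BYS minus SNS was 0.41 (limma adjusted p = 0.0764), and with median scaling it was 0.50 (adjusted p = 0.202). The BYP call was lost without BYP replicate 4 (0.27, limma adjusted p = 0.127), without BYP replicate 3 (0.42, adjusted p = 0.0596), or without SNS replicate 1, 2 or 3 (adjusted p = 0.0657, 0.0609 and 0.0573), and also with no filter on dim probes (0.30, adjusted p = 0.0564).

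Itgam encodes CD11b, a chain of complement receptor 3 that serves in adhesion and phagocytosis, and it had the least secure of the calls. By the probe that stands for the gene, its level was 7.93, 8.04, 8.18 and 8.57 in SNS, and 8.26, 8.26, 8.16 and 8.29 in BNS. It was 8.44, 8.45, 9.25 and 9.10 in BYS, 8.10, 8.10, 9.11 and 7.56 in BYA, and 8.51, 9.07, 9.29 and 8.72 in BYP. BYP exceeded SNS by 0.72 (1.64-fold higher, limma adjusted p = 0.0475), with the lowest BYP sample below the highest SNS sample. BYS minus SNS was 0.63 (limma adjusted p = 0.0817), and both BYS samples of 1 array, replicates 3 and 4, lay above the other pair.

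The value of Itgam rests on probe A_43_P15993, because the other probe has an outlier spot in SNS replicate 1. Probe A_64_P023848 was well above background in all 20 samples, and its difference between BYP and SNS was 0.06 (standard error 0.207, limma adjusted p = 0.854). Its level was 9.69, 9.35 and 9.60 in the measured SNS samples and 9.40, 9.72, 10.03 and 9.31 in BYP. Probe A_43_P15993 was not well above background in SNS replicates 1 and 3 and in BYA replicates 1 and 4. The differences of the 2 probes between BYP and SNS were thus unlike. The call was also lost without any 1 of SNS replicates 1, 2 and 3, of BYP replicates 2, 3 and 4, of BYA replicates 1 and 2, or of the 4 BNS samples, with a limma adjusted p of up to 0.133 (without BYP replicate 3).

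**Figure D3:**
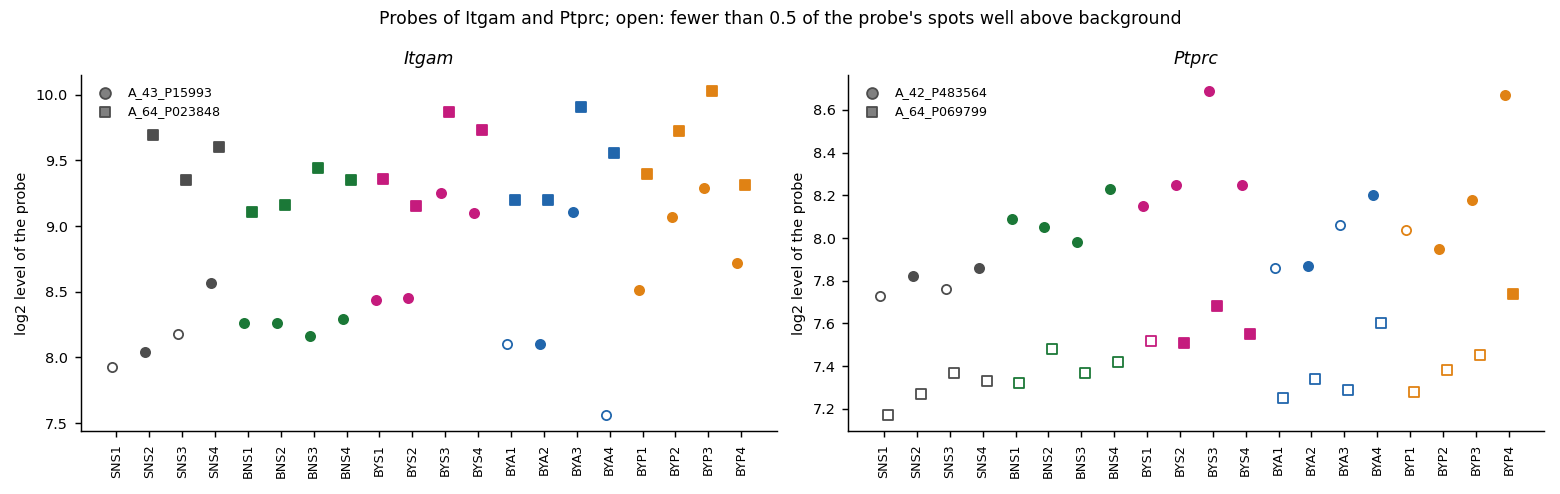
Log2 level of each probe of Itgam (left) and Ptprc (right) in every sample (x axis, colours by group). Open symbols mark samples where fewer than 0.5 of the probe's spots were well above background. The Itgam probe shown as circles is higher in BYP than in most SNS samples, while the probe shown as squares overlaps between BYP and SNS.

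Csf1r, the growth factor receptor on which microglia depend, showed no call in any comparison, with differences between −0.17 and 0.13. Its level lay between 8.65 and 8.89 in SNS, between 8.64 and 8.99 in BNS, between 8.58 and 8.82 in BYS, between 8.66 and 8.90 in BYP, and between 8.47 and 9.15 in BYA. The groups overlapped in all comparisons. Trem2, a receptor for lipids and cell debris, had means of 11.23 ± 0.28 in SNS, 11.22 ± 0.18 in BNS, 11.11 ± 0.20 in BYS, 10.85 ± 0.31 in BYA and 10.87 ± 0.27 in BYP (SD, n = 4). Its difference from SNS was −0.39 in BYA (95% interval −0.75 to −0.03, limma adjusted p = 0.0943) and −0.36 in BYP (limma adjusted p = 0.117). The Trem2 groups overlapped in all comparisons.

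Tyrobp encodes DAP12, the signalling adaptor of Trem2. Its level was 12.61, 12.35, 12.58 and 12.29 in SNS, 12.25, 12.07, 12.64 and 12.68 in BNS, and 12.79, 12.29, 13.24 and 13.20 in BYS. In BYA it was 12.52, 11.81, 12.56 and 12.51, and in BYP 12.80, 12.12, 12.74 and 13.13. Within BYS, replicates 3 and 4 again stood above the other pair, as they did for Itgam. BYS minus SNS was 0.42 (limma adjusted p = 0.156), and BYA minus BYS, the widest difference, was −0.53 (95% interval −0.99 to −0.07, limma adjusted p = 0.543).

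The remaining markers are Tmem119, a membrane protein typical of resident microglia, Aif1, which encodes the cytoskeletal protein Iba1 used to stain them, and Cd68, a lysosomal protein of phagocytes. Tmem119 had means from 8.19 ± 0.30 in BYS to 8.47 ± 0.15 in BNS, and Aif1 from 12.02 ± 0.24 in BYS to 12.17 ± 0.06 in SNS (SD, n = 4). Cd68 had its lowest mean in SNS (8.63 ± 0.09) and its highest in BYS (8.96 ± 0.17; SD, n = 4), and its 4 BYS samples lay above its 4 SNS samples, with a difference of 0.33 (95% interval −0.03 to 0.68, limma adjusted p = 0.156). Over the 6 members never called, the 60 differences ran from −0.53 to 0.47, and their 95% intervals reached from −0.99 to 0.92.

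The members also differed in how they varied from rat to rat inside a group. After the group means and the dye effect were removed, Tyrobp correlated most with the mean of all 10 standardised members over the 20 samples (Pearson r = 0.89), followed by Trem2 (0.75) and Ptprc (0.73), while Itgam (0.16) and Csf1r (−0.02) were least alike. The highest r of a pair was 0.68, reached by Cd68 with Tyrobp and by Ptprc with Tyrobp, and P2ry12 with Tmem119 had 0.57. These values are descriptions over samples that share arrays and slides, and each member is part of the mean it is set against. Outside the marker and list genes, the genes most like that mean within groups were C2 (0.85), Rac2 (0.78), Ndufb4l1 (0.76), Fzd1 (0.75) and Lyz2 (0.75). With only the dye effect removed, they were Rac2 (0.72), Acp5 (0.65), Rpl39 (0.64), Abca8a (0.64) and Lnx2 (0.63).

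Of 17 ligands and partners of the members, 15 were tested. Cx3cl1, the neuronal ligand of Cx3cr1, had a level of 15.38, 15.12, 15.82 and 15.44 in SNS, and 16.23, 16.13, 15.76 and 15.95 in BNS. It lay between 15.96 and 16.45 in the BYS, BYA and BYP samples, all above the highest SNS sample. Against SNS it rose by 0.58 in BNS (limma adjusted p = 0.00657), 0.81 in BYS (adjusted p = 0.000512), 0.73 in BYA (adjusted p = 0.00108) and 0.83 in BYP (adjusted p = 0.000433), but with median scaling these values became −0.80, 0.14, 0.93 and −0.25 and none was called. None was called with the processed signals either, where they were 0.11, 0.28, 0.20 and 0.39. Thus the ligand and its receptor were called in opposite directions in BNS, BYS and BYP under quantile normalization, and the direction of the ligand turned with the scaling in BNS and BYP. Under that scaling the median difference of all genes was −0.23 for BNS minus SNS and −0.18 for BYP minus SNS, beside −0.04 in both with quantile normalization.

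Csf1, one ligand of Csf1r, rose in BYP by 0.56 over SNS (limma adjusted p = 0.0372) and by 0.96 over BNS (1.94-fold, where 2 of the 15 partners were called, both higher). With median scaling these values were 0.08 (limma adjusted p = 0.809) and 0.74 (adjusted p = 0.999), and with the array as a random block neither was called (adjusted p = 0.137 and 0.178). The Csf1 call against SNS was also lost with the processed signals (0.74, limma adjusted p = 0.0613) and without any 1 of the 4 SNS samples or BYP replicates 1, 3 and 4 (adjusted p of up to 0.0803), and that against BNS without BNS replicate 1 or 3 (adjusted p of up to 0.0797). Icam1, an adhesion partner of the CD11b integrin, rose in BYP by 2.37 over SNS (5.17-fold, limma adjusted p = 0.00107) and by 2.24 over BNS. The call against BNS was lost with median scaling (1.92, limma adjusted p = 0.874), with the array as a random block (adjusted p = 0.108), and without BNS replicate 1, 2 or 3 or BYP replicate 2 or 3 (adjusted p of up to 0.0673). C3, whose fragment iC3b binds CD11b, rose by 0.96 (limma adjusted p = 0.0205) and Cd200, a neuronal inhibitor of microglia, fell by 0.99 (limma adjusted p = 0.00982) in BYP against SNS. The C3 call was lost with the processed signals (1.18, limma adjusted p = 0.138), with the array as a random block (0.92, adjusted p = 0.057), and without SNS replicate 3 or 4 or BYP replicate 3 or 4 (adjusted p of up to 0.0739), and the Cd200 call in the fit of only the compared groups (−0.99, adjusted p = 0.0777). P2rx4, an ATP-gated channel, fell by 0.37 in BNS against SNS (limma adjusted p = 0.0414), a call lost with the processed signals (−0.66, adjusted p = 0.151), with median scaling (−0.05, adjusted p = 0.847) and in 6 of the 20 fits that each left out 1 sample (adjusted p of up to 0.149).

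The other partners were not called in any comparison. Il34, the second ligand of Csf1r, differed from SNS by −0.17 in BNS, −0.19 in BYS, −0.24 in BYA and −0.19 in BYP. Itgb2, the partner chain of CD11b, differed by 0.12, 0.25, 0.09 and 0.19, and Syk, the kinase that acts after Tyrobp, by −0.04, −0.50, −0.32 and −0.17 in the same order. C5ar1, the receptor blocked by PMX53, differed by −0.12, 0.00, −0.15 and 0.01, and it was not well above background in any BYA sample. Hcst, Cd47, Sirpa, Tgfb1 and P2ry6 had absolute differences from SNS of at most 0.37, that of Cd47 in BYS.

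Of 35 other microglial genes, 33 were tested. Against SNS, 5 of the 33 were called higher in BNS (15.2%, beside 15.1% of all genes), 11 in BYS (33.3%, beside 14.5%), 4 in BYA (12.1%, beside 15.8%) and 8 in BYP (24.2%, beside 15.4%). In the same order 0, 3, 2 and 0 were called lower, beside 13.5%, 12.6%, 15.4% and 13.5% of all genes. Again in this order, the median difference of the 33 was 0.10, 0.24, 0.00 and 0.21. The share called higher was thus near that of all genes in BNS, below it in BYA and above it in BYS and BYP. Some of the 33 passed the filter on dim probes only through BYS, or only through BYS and BYP. The shares in BYS and BYP thus rest in part on genes admitted by their signal there. Ctss, a lysosomal protease, rose by 0.77 in BYS and 0.89 in BYP, and Runx1, a transcription factor, by 0.62 in BYS and 0.75 in BYP. The Runx1 call in BYS was lost without the array of BYS replicates 3 and 4 (0.26, limma adjusted p = 0.373), as was that of Ctss (0.74, adjusted p = 0.0843), and each was also lost in 4 of the 20 fits that left out 1 sample (adjusted p of up to 0.0935 and 0.0626). With median scaling the Ctss difference was 0.51 in BYS and 0.03 in BYP, and neither was called.

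Cd53, a tetraspanin, rose by 0.49 and Apbb1ip by 0.46 in BNS against SNS (limma adjusted p = 0.0402 and 0.0244), and neither call was secure. That of Cd53 was kept under 7 of 14 alternatives, was lost with the processed signals (0.48, limma adjusted p = 0.138), with median scaling (0.35, adjusted p = 0.219) and with the array as a random block (0.49, adjusted p = 0.102), and was also lost without SNS replicate 1, 2 or 4 or any 1 of the 4 BNS samples (adjusted p of up to 0.125). That of Apbb1ip was lost with the processed signals (0.51, limma adjusted p = 0.249), with the brightest probe or only probes well above background in all samples (0.36, adjusted p = 0.101), with the array as a random block (0.46, adjusted p = 0.0876), and without SNS replicate 3 or BNS replicate 4 (adjusted p of up to 0.0781). Tgfbr1, a receptor for the cytokine that keeps microglia at rest, fell by 0.61 in BYA against SNS (limma adjusted p = 0.000863), a call lost with the processed signals (−0.37, adjusted p = 0.111). Mertk, a receptor for dying cells, had a difference of −0.57 there (limma adjusted p = 0.0371), and it was well above background in 2 SNS samples and 1 BYA sample. This call was kept under 4 of 13 alternatives, and was lost with the processed signals (−0.98, limma adjusted p = 0.355) and with median scaling (−0.58, adjusted p = 0.408). Without SNS replicate 2 or 3 or BYA replicate 1, 2 or 3 it was lost as well, and with 1 sample left out the difference ranged from −0.83 to −0.27 (limma adjusted p of up to 0.232).

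Genes of activated microglia, 25 of 32 tested, were not called by limma in BNS against SNS (2, Cd9 and Ctsb, had an unadjusted p under 0.05, as had 41.4% of all genes). Of the 25, 5 were called higher in BYS (20%, beside 14.5% of all genes), 4 in BYA (16%, beside 15.8%) and 11 in BYP (44%, beside 15.4%), and 1, 0 and 1 lower. Their median difference from SNS was 0.12 in BNS, 0.47 in BYS, 0.24 in BYA and 0.47 in BYP. Ccl2, Ccl4 and Il1b passed the filter on dim probes only through BYP, and RT1-Da only through BYS. The shares called higher in BYP and BYS thus include genes admitted by their signal there. Ccl3, a chemokine, had a level of 7.78, 7.81, 7.43 and 7.62 in SNS, and 7.76, 7.66, 7.71 and 7.77 in BNS. It was 7.79, 7.91, 12.04 and 12.08 in BYS, 11.90, 10.97, 9.99 and 12.47 in BYA, and 12.48, 12.69, 13.37 and 11.63 in BYP. All BYA and BYP samples lay above all SNS and BNS samples, while in BYS the pair on 1 array stood near the SNS level and the pair on the other array high.

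Against SNS, Ccl3 rose by 2.30 in BYS (limma adjusted p = 0.0407), 3.68 in BYA (adjusted p = 0.00235) and 4.89 in BYP (adjusted p = 0.000243), and it rose by 4.82 in BYP against BNS (adjusted p = 0.00696). Ccl3 was well above background in 1 of 4 SNS samples and 2 of 4 BNS samples, which limits these differences. Without the array of BYS replicates 3 and 4, BYS minus SNS was 0.19 (limma adjusted p = 0.827), and that call was also lost without any 1 of the 4 SNS samples or of BYS replicates 3 and 4 (adjusted p of up to 0.163). With median scaling BYP minus BNS was 4.26 (limma adjusted p = 0.539). Spp1, which encodes osteopontin, had the same split in BYS, with 8.24 and 8.79 on one array and 13.31 and 12.42 on the other. It rose by 2.51 in BYS (limma adjusted p = 0.024), a difference of 0.33 without the array of replicates 3 and 4 (adjusted p = 0.507), and by 2.14 in BYP (adjusted p = 0.0467). The BYP call was lost in 16 of the 20 fits that each left out 1 sample, all but those without a BYS sample (limma adjusted p of up to 0.105), and with median scaling (2.02, adjusted p = 0.0569), no filter (adjusted p = 0.0627) and the array as a random block (adjusted p = 0.0835). Spp1 was well above background in 2 of 4 SNS samples. The same pair of BYS samples held the highest Itgam and Tyrobp levels of its group.

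Ccl4, Ccl2 and Il1b, 2 chemokines and a cytokine, were not well above background in any SNS sample and passed the filter only through BYP. In BYP, Ccl4 was 6.38-fold higher than in SNS (limma adjusted p = 0.000436), Ccl2 9.88-fold (adjusted p = 0.00712) and Il1b 2.18-fold (adjusted p = 0.00701). Each fold took the higher of the gene's own signal and the lowest signal well above background in each SNS sample. This moved the SNS mean of Ccl2 from 7.39 to 7.41 and left Ccl4 at 7.67 and Il1b at 7.58. The folds are thus estimates and not lower bounds. The fitted log2 difference in BYP had a 95% interval of 1.69 to 3.65 for Ccl4 and 1.56 to 5.08 for Ccl2. In BYA, Ccl4 was 2.96-fold, Ccl2 6.48-fold and Il1b 2.00-fold higher than in SNS by the same estimate, with 3 of 4 BYA samples well above background for each. BYA replicate 3, whose channel is not certain, had the lowest level of its group for Ccl3, Ccl4, Ccl2 and Il1b. Gpnmb, a membrane glycoprotein of lipid-laden phagocytes, rose by 1.22 in BYS against SNS (limma adjusted p = 0.0207), and was at 0.42 (adjusted p = 0.405) without the array of BYS replicates 3 and 4. RT1-Da, a class II antigen gene of the rat, was 1.53-fold higher in BYS than in SNS (limma adjusted p = 0.00501). It was not well above background in any SNS sample.

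**Figure D4:**
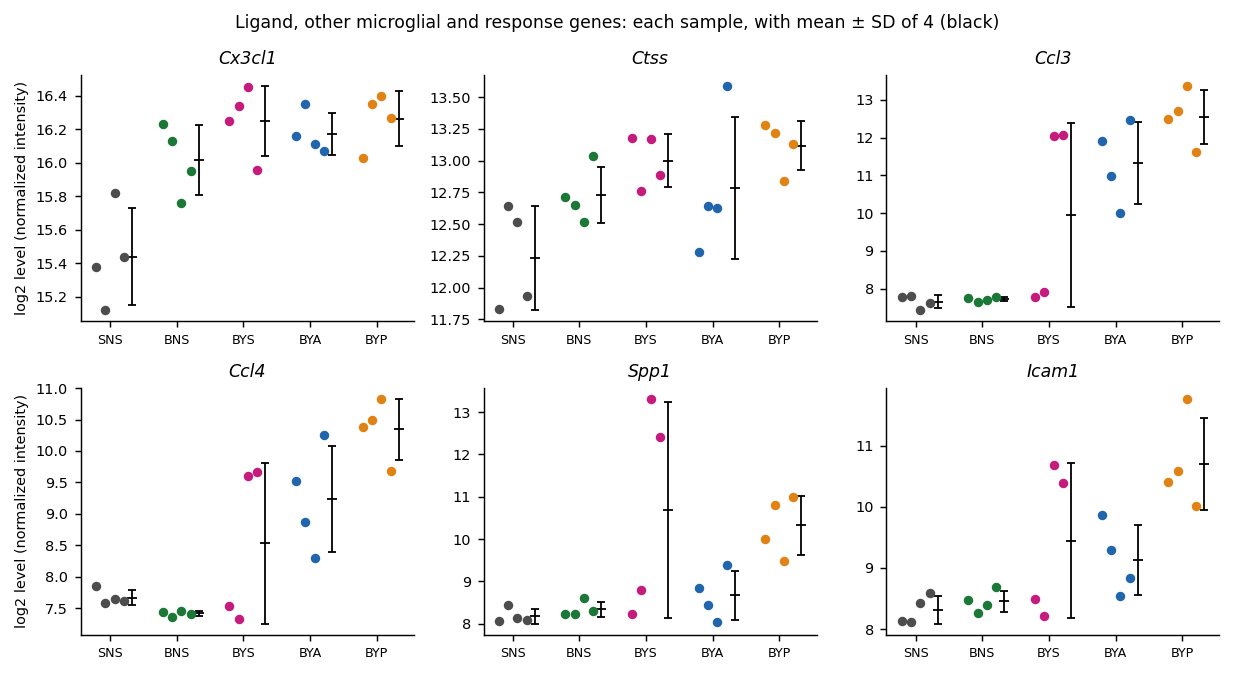
Log2 level of the ligand Cx3cl1, the lysosomal protease gene Ctss and response genes (Ccl3, Ccl4, Spp1, Icam1) in each sample by group (x axis), with the mean ± SD of 4 samples in black. In BYS, Ccl3, Ccl4, Spp1 and Icam1 are high in replicates 3 and 4, which share an array, and near the level of SNS in replicates 1 and 2.

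Markers of other cells that could share these genes were followed beside the members. Of 10 markers of border macrophages, which line vessels and meninges, 5 were tested, and Folr2 rose by 0.63, 0.55, 0.65 and 0.39 in BNS, BYS, BYA and BYP against SNS, while Siglec1 fell by 0.52, 0.41, 0.45 and 0.44. With median scaling, Siglec1 was not called in any of the 4 and its difference in BYP was 0.13, and with the processed signals neither gene was called in any of them. Siglec1 was well above background in 2 of 4 samples of SNS, 2 of BNS, 1 of BYA and 2 of BYP, and passed the filter only through BYS. Its differences thus lie near background. The defining marker Cd163 was not well above background in any BYA sample. The summed level of the 5 lay between 10.49 and 10.95 in SNS, 10.75 and 11.03 in BNS, 10.78 and 11.05 in BYS, 10.79 and 10.99 in BYA, and 10.78 and 11.08 in BYP.

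Of 17 markers of blood leukocytes, which also express Ptprc, 16 have a probe and 2, Camp and Cd4, passed the filter. Their summed level lay between 9.25 and 9.56 in SNS, 9.23 and 9.39 in BNS, 9.21 and 9.26 in BYS, 9.02 and 9.36 in BYA, and 8.89 and 9.22 in BYP. Only these 2 of the 17 markers enter the sum. Camp, a granule peptide of neutrophils, fell by 0.39 in BYA and by 0.50 in BYP against SNS (limma adjusted p = 0.0261 and 0.00779). Of 7 genes of red blood cells, 6 were tested. Against SNS, 4 were called higher in BNS (66.7%, beside 15.1% of all genes) and 2 in BYS (33.3%, beside 14.5%). In BYA 2 were called higher (33.3%, beside 15.8%) and in BYP 0 (beside 15.4%). Of 7 genes of choroid plexus and ependyma, 5 were tested, and their summed level was 13.17 to 13.50 in SNS and at most 13.14 in each other group. The brightest genes weigh most in such a sum. Against SNS, 1 of the 5 was called higher in BNS (20%, beside 15.1% of all genes) and 0 were called in BYS. In BYA 2 were called lower (40%, beside 15.4%) and in BYP 1 (20%, beside 13.5%). The part of these cells in the results of the microglial genes was not tested.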

How the data were processed

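The authors hybridized RNA of 20 rats, labelled with Cy3 or Cy5, to 11 arrays on 6 slides, with 1 rat to a channel. Per the file headers, the deposited values are intensities: the mean signal of a spot, the median of its local background, and a processed signal from which the extraction software had subtracted background and removed dye bias. That software has version 11.5.1.1 in the file headers and 10.7.3.1 in the submitters' processing notes. The deposited flags for spots well above background, outlying or saturated are 0 or 1. The 82 columns of another series were not used.

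Signals were corrected channel by channel with limma's normexp (offset 50), brought to common quantiles over the 20 channels and put on a log2 scale. Outlying spots (1.18% of values) were dropped and the spots of a probe averaged. The filter asked that, in some group, each of the 4 samples had 0.5 or more of the probe's spots well above background, and 19883 probes met it. Probes of a gene without missing values were averaged. Accessions of 18643 probes (61.4%) matched the RefSeq table of symbols, and the others kept the name in the files. A single limma model of 20 samples with dye as covariate gave 10 comparisons and a moderated F test, all two-sided and adjusted by Benjamini-Hochberg. The software was limma 3.58.1 with statmod 1.5.0 and the package data.table, version 1.17.8, under R 4.3.3. With 4 samples against 4, an exact permutation test cannot give a p below 0.0286.

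The members and the gene lists were chosen with earlier results of these data known. The text names all 10 members, the tested ligands and partners, the called genes with the largest difference (up to 4 per comparison and list) among other microglial genes, genes of activated microglia and border macrophages, and the 5 genes most like the members. Some genes that the rule names, and the sequences of some probes, are not reported here. Cd9, Ctsb and Camp are named outside this rule, after their values were seen. Of 7 sex-linked genes meant as a check of labels, 0 had a named probe. Of 7 pituitary genes 2 were tested and 0 called. The tested genes of neurons (9), arcuate neurons (12), astrocytes (8) and oligodendrocytes (10) had 2 calls or fewer in each comparison. Of 8 tested genes of endothelium and pericytes, 4 were called in BYS and 4 in BYA against SNS, beside 27.1% and 31.3% of all genes. In each, 1 was higher and 3 (37.5%) were lower, beside 12.6% and 15.4% of all genes called lower. Their other comparisons had 1 call or fewer. Samples with the same replicate number in different groups did not deviate together (correlation across genes −0.239 to 0.279, mean 0.00297), so none were paired. Data were simulated with independent noise for each sample, no array effect, and 200 of 16300 genes changed between BYS and SNS. There a log2 change of 1 was found in 91.5%, and one of 0.5 in 34%, of the changed genes. The real arrays gave a correlation of 0.365, and 27.1% of genes were called between BYS and SNS. The simulated shares are thus not the power of this design. Alternatives covered the background correction, normalization, filter, block, dye, samples, probes and test.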

Additional observations from a re-analysis of the deposited data

Results flagged for a closer look

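In 2 of the 50 groups of 4 samples (10 members in 5 groups), 1 sample lay far from the other 3 by Dixon's test, and chance flags about 1 in 20 groups. Cx3cr1 was at 11.33 in BYS replicate 4, while the other BYS samples lay at 10.59 or less. Tyrobp was at 11.81 in BYA replicate 2, with the other BYA samples at 12.51 or more.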

How the results depend on the processing

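The directions of the 8 calls of members held under every alternative, but the calls depended on the setting. Cx3cr1 in BNS was called under all 34 alternatives, Cx3cr1 in BYS and P2ry12 in BYP under 33, Cx3cr1 in BYP under 32, P2ry12 in BYA under 29, Ptprc in BYS under 30 and in BYP under 23 of 33, and Itgam in BYP under 16 of 34. The counts below, of members and of genes in the other lists, changed by over 1.5 times, and the cause was not tested. Calls over all genes moved with the settings too. With the processed signals they were 2329 of 17065 for BNS minus SNS (from 4880), 2314 for BYS minus SNS (from 4626) and 1940 for BYA minus SNS (from 5337). For BYA minus BYS they were 9 (from 0), and for BYA minus BNS 65 (from 20).

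With the processed signals, members called became 1 for BYA minus BYS (from 0) and 0 for BYA minus SNS (from 1), and other genes 3 for BNS minus SNS (from 9), 1 for BYA minus BNS (from 0), 13 for BYS minus SNS (from 23) and 4 for BYA minus SNS (from 13). With median scaling, under which the median difference of all genes lay between −0.23 and 0.23 over the 10 comparisons, members became 4 for BNS minus SNS (from 1), 2 for BYP minus BYA, 1 for BYA minus BNS, 1 for BYS minus SNS (from 2) and 0 for BYA minus SNS, and other genes 8 for BYP minus BYA, 8 for BYA minus BNS, 0 for BYP minus BNS (from 6), 4 for BYS minus SNS and 4 for BYA minus SNS. Median scaling called 5809 of all genes for BNS minus SNS (from 4880), 3176 for BYP minus BYA (from 27) and 3162 for BYA minus BNS (from 20). It called 1129 for BYS minus SNS (from 4626), 1336 for BYA minus SNS (from 5337) and 0 for BYP minus BNS (from 257). With loess, members became 1 for BYA minus BYS and 4 for BYS minus SNS, and other genes 2 for BYA minus BYS, 3 for BYP minus BYA, 1 for BYA minus BNS and 10 for BYP minus BNS. Of all genes, loess called 224 for BYA minus BYS, 519 for BYP minus BYA, 323 for BYA minus BNS, 409 for BYP minus BNS and 5014 for BYS minus SNS. With probes well above background in all samples, members became 1 for BYS minus SNS and 2 for BYP minus SNS (from 4), and other genes 4 for BNS minus SNS, 1 for BYP minus BNS, 11 for BYS minus SNS, 4 for BYA minus SNS and 9 for BYP minus SNS (from 27). Of the 11055 genes left by that filter, 3215 were called for BNS minus SNS, 62 for BYP minus BNS and 3196 for BYS minus SNS. For BYA minus SNS 3598 were called, and for BYP minus SNS 3283. With no filter, 2 members were called for BYP minus SNS, beside 5793 of 25885 genes.

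With the array as a random block (correlation 0.365), 1 member was called by the F test (from 3), 0 for BYA minus SNS and 2 for BYP minus SNS, and of other genes 5 for BNS minus SNS, 2 for BYP minus BNS, 12 for BYS minus SNS and 17 for BYP minus SNS. Of all genes, the array block called 2589 for BNS minus SNS, 15 for BYP minus BNS, 2383 for BYS minus SNS, 3305 for BYA minus SNS and 2639 for BYP minus SNS. With the slide as a random block (correlation −0.128) the counts grew, to 6 members by the F test, 2 for BNS minus SNS, 1 for BYA minus BYS, 1 for BYP minus BYS, 1 for BYP minus BYA, 1 for BYA minus BNS, 2 for BYP minus BNS, 6 for BYS minus SNS and 2 for BYA minus SNS, and to 23, 2, 5, 11, 7, 26, 42 and 24 other genes in the same comparisons, 5 for BYS minus BNS and 46 for BYP minus SNS. Calls over all genes grew too, from 4880 to 8137 for BNS minus SNS. Only BYA replicate 3 lay on another slide than its group, so this setting has almost nothing to estimate slide from. It is no check on the calls, though it is among the alternatives counted above. The replicate block, though the numbers gave no pairing, called 5 members by the F test, 1 for BYA minus BYS and 2 for BYA minus SNS. Of all genes, the replicate block called 2 for BYA minus BYS and 5569 for BYA minus SNS. Fitted on only the compared groups, 2 members were called for BNS minus SNS and 15 other genes for BYS minus SNS, beside 4524 and 3394 of all genes.

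The methods' t-test, unadjusted, called 3 members for BNS minus SNS, 1 for BYA minus BYS, 1 for BYA minus BNS, 1 for BYP minus BNS, 4 for BYS minus SNS and 2 for BYA minus SNS, and 12 other genes for BYS minus BNS, 3 for BYA minus BYS, 3 for BYP minus BYS, 13 for BYP minus BYA, 8 for BYA minus BNS and 26 for BYP minus BNS. Of all genes it called 6068 for BNS minus SNS, 5320 for BYS minus SNS, 5019 for BYA minus SNS and 1293 for BYS minus BNS. For BYA minus BYS it called 851, for BYP minus BYS 944, for BYP minus BYA 1180, for BYA minus BNS 1760 and for BYP minus BNS 2547. After Benjamini-Hochberg it called 2 members for BNS minus SNS and 0 against SNS in BYS, BYA and BYP, and 0 other genes for BYP minus BNS, 7 for BYS minus SNS, 3 for BYA minus SNS and 7 for BYP minus SNS. Of all genes it then called 2530 for BNS minus SNS, 11 for BYP minus BNS, 1719 for BYS minus SNS, 1226 for BYA minus SNS and 1366 for BYP minus SNS. Without the array of BYS replicates 3 and 4, an alternative chosen after seeing the data, 1 member was called for each of BYA minus BYS, BYP minus BYS and BYS minus SNS, and of other genes 1 for BYA minus BYS, 6 for BYP minus BYS, 3 for BYP minus BYA, 2 for BYA minus BNS, 12 for BYP minus BNS and 9 for BYS minus SNS.

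When 1 sample was left out, members called ranged from 2 to 4 by the F test, 0 to 1 for BYA minus BYS (1 without BYS replicate 4 or BYA replicate 3), 0 to 1 for BYP minus BYA (1 without BYA replicate 3), 0 to 1 for BYP minus BNS (1 without BYP replicate 4), 2 to 3 for BYS minus SNS, 0 to 1 for BYA minus SNS (0 without BYA replicate 2) and 2 to 4 for BYP minus SNS (2 without SNS replicate 1, 2 or 3 or BYP replicate 3). Other genes ranged from 5 to 10 for BNS minus SNS (5 without BNS replicate 4), 0 to 1 for BYS minus BNS, BYP minus BYS and BYP minus BYA, 0 to 4 for BYA minus BNS, 2 to 9 for BYP minus BNS, 12 to 29 for BYS minus SNS (12 without BYS replicate 3), 10 to 15 for BYA minus SNS and 18 to 29 for BYP minus SNS.

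The sign turned for 12 values. With the processed signals, Aif1 was at 0.07 for BYS minus SNS. With median scaling, Cx3cl1 was at −0.80 (BNS minus SNS) and −0.25 (BYP minus SNS), Siglec1 at 0.13 (BYP minus SNS), P2ry12 at 0.18 (BYA minus BNS) and 0.30 (BYS minus BNS), and Ptprc at 0.35 (BYP minus BYS) and −0.05 (BYS minus BNS). Without the array of BYS replicates 3 and 4, P2ry12 was at 0.04 (BYS minus BNS) and Ptprc at 0.01 (BYP minus BYS). Ptprc was also at −0.03 for BYP minus BNS without BYP replicate 4 and at 0.01 for BYP minus BYS without BYS replicate 3 (range −0.28 to 0.01 with 1 sample left out, and −0.03 to 0.23 for BYP minus BNS). Ptprc, Itgam, C5ar1, Mertk, Siglec1, Spp1, Ccl3, Ccl4, Ccl2 and Il1b lay near background in several samples, which limits their differences.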
